A study of Mus musculus with 46 samples.

Results

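MycVD tumours are liver tumours of FVB mice that carry a transgene for Myc with the V394D substitution, in which a valine is replaced by aspartate. RNA sequencing libraries of these tumours were compared with libraries of control liver. They were chosen by their labels: 11 tumour libraries of the MycVD genotype and 11 libraries of control liver, which is 22 of the 46 libraries of the series. A pair of the tumours carries the same animal ID, and their log2 values were averaged, so that 10 tumour IDs were set against 11 control IDs, 21 of the 31 IDs in all.

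The genotype of the tumours is given as tet-MycVD/LAPtTA, in which the liver-specific driver LAPtTA switches the tet-regulated transgene on, here from before birth. Control liver is labelled as normal liver of the same strain, with no allele named. The other groups are 16 tumours of 7 IDs with the wild-type transgene switched on (tet-Myc/LAPtTA, Myc tumours) and 8 tumours of 3 IDs in which that transgene had been off for 16 hours of doxycycline food. The Myc tumours are used below to ask which differences depend on the substitution, and the switched-off tumours contributed only to the estimate of the spread. Neither age nor sex is named in the labels used here, and whether an ID is an animal is an assumption.

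Myc is a transcription factor that binds DNA together with Max, mostly at E-boxes, and raises genes for ribosome production, nucleotide synthesis and cell division. It can also bind Miz1, a zinc finger factor encoded by Zbtb17, and lower genes that Miz1 activates, among them inhibitors of cyclin-dependent kinases. The V394D substitution is known to weaken binding to Miz1 while binding to Max is kept. In adult liver most hepatocytes are not dividing and are devoted to plasma proteins, bile acids, drug oxidation and intermediary metabolism.

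Values are exonic RPKM made by the authors (eRPKM: reads on exons per kb of exon and per M, or mega, reads), 1 value per ID. Where 3 values of a group are given, they are the lowest, the median and the highest ID. Differences are log2 fold changes ± SE between means of log2(eRPKM + 0.5), which understates the change of genes near 0. A gene was called when limma's test, adjusted over 14566 tested genes by Benjamini-Hochberg, gave a value under 0.05. Recovered depths were 5.63 to 8.95 M reads on genes in control liver and 6.18 to 10.6 M in MycVD tumours. In 1 control and 2 MycVD libraries Gapdh stood apart at 15 to 27.1 eRPKM, against 44.5 to 64.6 in the others of both groups. No library reached more than 2182 reads per kb, so differences of the most abundant genes, such as Alb, are compressed. Xist was above 1 eRPKM in 6 of 11 control and 7 of 10 MycVD IDs, so both groups may mix sexes. The lowest of these IDs were at 1.52 and 3.11, and the other IDs reached 0.803 and 0.766. In Myc tumours the IDs above 1 began at 79.7, so the cut gives no sure count of each sex. MycVD tumours have higher ID numbers than all Myc tumours, while the control IDs lie on both sides. A date or batch that goes with the ID cannot be told apart from the difference between the tumour kinds.

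The difference between MycVD tumours and control liver reached most of the transcriptome. Of 14566 tested genes 11686 were called (80.2%), of which 7156 were higher (49.1% of those tested) and 4530 lower (31.1%). At least 2-fold were 3046 genes higher (20.9%) and 1857 lower (12.7%), and the ID values of the groups did not overlap at all for 3751 genes that were higher (25.8%) and 2150 that were lower (14.8%). The median of all genes was 0.22. Under median-ratio scaling it was 0.02, and the share of calls that were higher went from 61.2% to 50.7%. Small changes are therefore read against this shift: under median-ratio scaling each list below had as many or fewer genes higher and as many or more lower, and those counts are given for the lists of small rises.

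Among genes without overlap between the groups and with at least 5 eRPKM in the higher group, leaving out provisional and small RNA names, the 10 largest rises were Ggt1, Dusp9, Bex2, A2m, Shbg, Bex1, Igf2, Spink3, Phlda2 and Peg10. Ggt1 encodes gamma-glutamyltransferase, which cleaves extracellular glutathione and is abundant in fetal liver. It was at 0, 0.281 and 1.03 eRPKM in control liver and at 61.7, 83.0 and 94.2 in MycVD tumours, and it rose by 6.73 ± 0.13 (adjusted p = 6.9e-28). The selection required no overlap, and here the gap was wide, from 1.03 to 61.7 eRPKM. Dusp9, a phosphatase of MAP kinases, had 0, 0.5 and 2.08 against 69.1, 93.9 and 104 and rose by 6.52 ± 0.18. Igf2, the fetal growth factor, had 0.263, 2.95 and 7.04 against 132, 160 and 209 and rose by 5.99 ± 0.29. Shbg, the sex hormone carrier of plasma, was near 0 in control liver (highest 0.389) and at 20.9 to 92.4 in the tumours. Peg10, a gene expressed from the paternal copy, was at 90.3 to 152 in 9 tumour IDs and at 3.75 in ID133762, where the highest control ID had 3.18.

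By the same rule the 10 largest falls were Ces3b, Ces1f, Cyp2d13, Dio1, Slco1a1, Cyp2c54, Sdr9c7, Hsd3b5, Cyp1a2 and Cyp4f15, which are enzymes and a transporter. Ces3b, a carboxylesterase, fell by 6.90 ± 0.38 (adjusted p = 1.0e-16), from 92.7, 138 and 185 in control liver to 0, 0.155 and 11.1. Dio1, which activates thyroid hormone, fell by 6.35 ± 0.37, from 93.5, 110 and 146 to 0, 0.553 and 8.59. Slco1a1, an importer of bile acids and other organic anions, fell by 6.33 ± 0.47. On the log2 scale its tumour values, 0.0631, 0.826 and 33.5, spread over a wider range than its control values, 89.2, 133 and 167. Carboxylesterase and cytochrome P450 genes have near-identical copies, and how their shared reads were divided is not known.

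**Figure D1:**
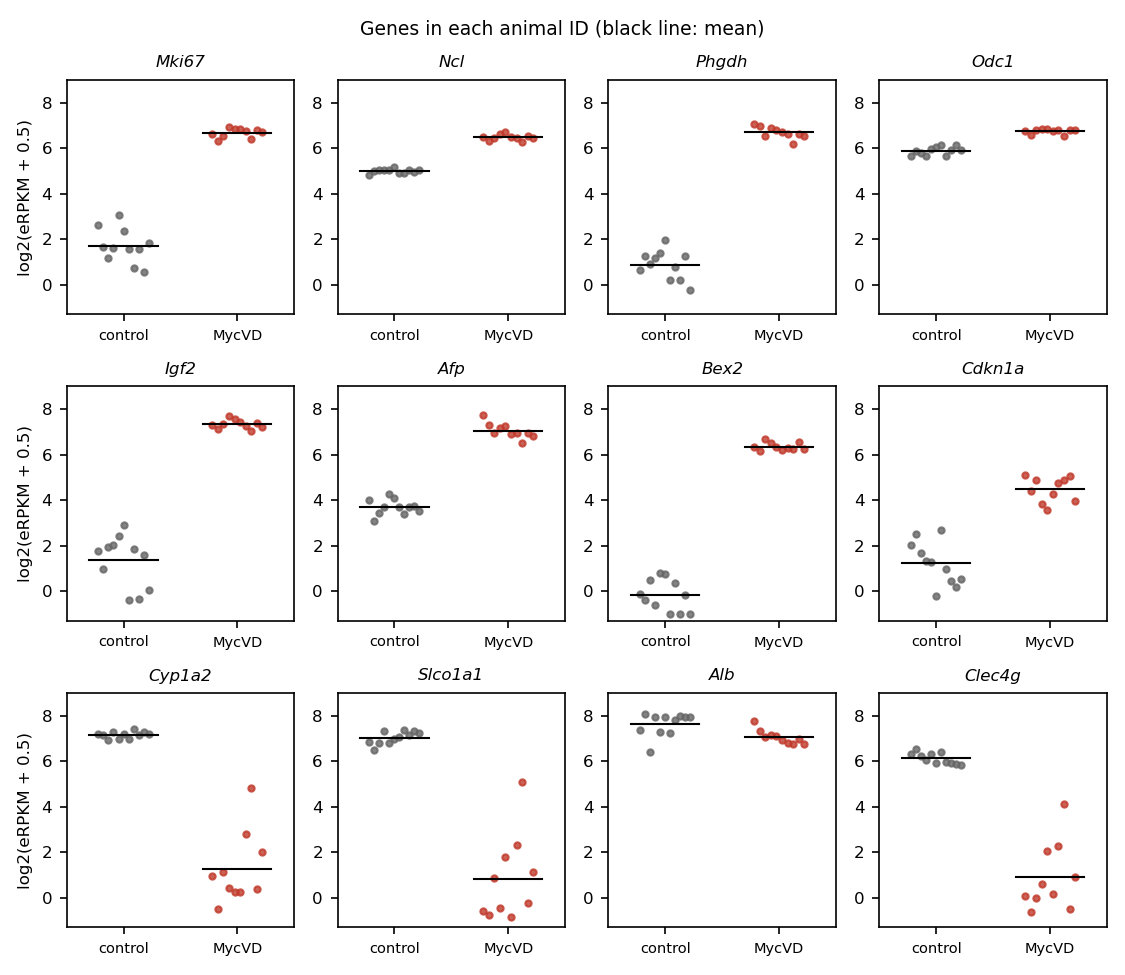
Levels of 12 genes in each animal ID on a log2(eRPKM + 0.5) axis, with control liver in grey, MycVD tumours in red and the group mean as a black line. Mki67, Phgdh, Igf2 and Bex2 show no overlap between the groups, whereas Cyp1a2, Slco1a1 and Clec4g fall in every tumour ID but reach much higher in ID134660 than in the others.

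Cell division genes rose together. All 34 members of the mitosis list were called higher, against 49.1% of all genes, with a median of 4.67, and all 34 had ID values without overlap. Mki67, the standard marker of cycling cells, had 0.969, 2.59 and 7.95 in control liver and 78.5, 106 and 121 in MycVD tumours, a rise of 4.97 ± 0.20 (adjusted p = 3.5e-20). Ccnb1, the mitotic cyclin, rose by 5.77 ± 0.20, and Bub1, Bub1b and Ttk, kinases of the spindle checkpoint, by 5.50 ± 0.10, 5.45 ± 0.14 and 5.37 ± 0.12. The list's median per tumour ID lay between 4.44 and 4.83, while control IDs ran from -0.37 to 0.55 around their mean. Every tumour ID was thus raised to a similar degree.

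DNA replication genes followed, with 39 of 40 higher, none lower and a median of 2.48. Mcm6, a subunit of the replicative helicase, had 0.447, 0.946 and 11.2 against 39.5, 49.9 and 59.4 and rose by 4.59 ± 0.28. Its highest control ID stood well above the others of its group but below every tumour. Cdc6, which loads that helicase, rose by 4.2 ± 0.21, and Rrm2, the regulated subunit of ribonucleotide reductase, by 4.08 ± 0.14.

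Genes of the G1 and S phases were less uniform, with 17 of 21 higher and 3 lower. Ccne1, a cyclin of S phase entry, had 1.14, 3.12 and 6.40 against 34.9, 52.7 and 57.0 and rose by 3.77 ± 0.15. Cdc25a, the phosphatase that activates its kinase, rose by 2.64 ± 0.08, and E2f1 by 2.33 ± 0.14. Among the D-type cyclins Ccnd3 rose by 1.14 ± 0.09, and the other two were lower. Ccnd1 had 30.7, 43.9 and 68.1 in control liver and 4.49, 7.35 and 17.0 in the tumours, a fall of 2.52 ± 0.18 (adjusted p = 4.4e-14), with no overlap. Ccnd2 fell by 0.94 ± 0.11, and Rbl2, a pocket protein of quiescent cells, by 0.96 ± 0.07.

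Inhibitors of cyclin-dependent kinases were higher in the same tumours. All 6 tested members of that list were called higher, with a median of 1.63, and under median-ratio scaling 5, without Cdkn2c. Cdkn1a, which encodes p21, had 0.37, 1.97 and 6.04 against 11.5, 23.8 and 33.7 and rose by 3.25 ± 0.29 (adjusted p = 1.2e-11). Cdkn1c, encoding p57 and subject to imprinting, rose by 3.81 ± 0.22 from 1.65, 2.93 and 9.16 to 24.4, 53.2 and 80.3. Cdkn2b, encoding p15 and a known target of Miz1, was low in all samples, with 0, 0.43 and 0.86 against 0.612, 1.11 and 1.98, and rose by 0.96 ± 0.19.

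RNA levels of ribosome biogenesis genes were raised almost throughout. Of 53 tested genes for ribosome biogenesis 52 were higher and 1 was lower, with a median of 1.49, and 51 of those that were higher had no overlap between the groups. Ncl, the nucleolar protein nucleolin, had 27.8, 32.1 and 35.3 in control liver and 78.0, 88.9 and 105 in the tumours, a rise of 1.48 ± 0.06 (adjusted p = 8.9e-21). The largest rise was that of Rrp1b, a nucleolar processing factor, from 3.02, 4.15 and 5.31 to 38.8, 48.0 and 54.8 (3.38 ± 0.08). Gar1, a core protein of the particles that place pseudouridines in RNA, rose by 2.44 ± 0.09 and Nle1, a 60S assembly factor, by 2.39 ± 0.11. Rcl1 alone was lower, by a log2 fold change of -0.30 ± 0.07, which was not called under quantile normalization (adjusted p = 0.31). Tumour IDs differed little, with list medians from 1.32 to 1.58.

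The polymerases that make ribosomal and transfer RNA moved the same way, with 29 of 32 subunits and factors higher and none lower (median 0.70), and 25 higher and 1 lower under median-ratio scaling (median 0.49). Polr1a, the catalytic subunit of RNA polymerase I, had 8.66, 9.62 and 12.6 against 32.6, 40.5 and 48.3 and rose by 1.96 ± 0.07. Among tRNA synthetases, cytosolic apart from the mitochondrial Fars2, 16 of 21 were higher and 2 lower, and 14 and 4 under median-ratio scaling. Vars rose by 1.67 ± 0.07, whereas Aars had 47.5, 57.6 and 90.5 in control liver and 23.1, 29.2 and 37.1 in the tumours and fell by 1.02 ± 0.09. Ribosomal protein genes rose less and depended on scaling: 48 of 53 were called higher with a median of 0.34, whereas median-ratio scaling gave 20 of 53 and a median of 0.12. Quantile normalization gave 53 of 53 and a median of 0.62, and depth as a term in the fit 53 of 53 and 0.44. Rps12 was the largest, with 25.1, 29.7 and 34.4 against 67.4, 77.9 and 85.9 (1.37 ± 0.05).

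Enzymes of nucleotide and one-carbon synthesis rose in 25 of 29 cases, and none fell (median 1.52), whereas 24 rose and 2 fell under median-ratio scaling. Phgdh and Psat1, which open the serine pathway that feeds one-carbon units, stood out. Phgdh had 0.352, 1.41 and 3.36 in control liver and 73.4, 102 and 133 in the tumours, a rise of 5.83 ± 0.18 (adjusted p = 4.4e-23). Psat1 had 1.02, 2.95 and 4.94 against 78.4, 94.1 and 130 (4.89 ± 0.16). Asns, the asparagine synthetase, rose by 5.50 ± 0.24 and Slc7a1, an importer of cationic amino acids, by 4.44 ± 0.11. Both belong to a list of targets of the stress factor ATF4, of which 10 of 23 were higher and 10 lower (all genes: 49.1% and 31.1%). Vldlr and Fgf21 of that list fell by 3.45 ± 0.34 and 2.92 ± 0.32.

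Genes often described as activated by Myc were higher in 31 of 36 cases and lower in 2. Under median-ratio scaling 26 were higher. Odc1, the entry enzyme of polyamine synthesis and a classical target, had 49.8, 59.5 and 70.5 against 92.1, 111 and 115 and rose by 0.87 ± 0.06, without overlap. Srm and Sms, which make spermidine and spermine, rose by 1.79 ± 0.11 and 2.05 ± 0.11. Sms is not on the Myc list but on that of polyamine metabolism. Of its 10 tested genes 5 were higher and 4 lower, and 4 and 4 under median-ratio scaling. Cdca7 rose by 3.49 ± 0.12, and Slc7a5, an importer of large neutral amino acids, by 3.49 ± 0.13.

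The Myc gene itself was not called, at 1.46, 5.56 and 18.2 in control liver and 2.67, 6.77 and 9.86 in MycVD tumours (0.26 ± 0.31, adjusted p = 0.44). The labels and headers do not say whether transgene reads were counted in that row, so it checks no label. Zbtb17, the gene of Miz1, was not called either, at 7.26, 9.39 and 13.4 against 8.57, 11.0 and 14.6 (0.16 ± 0.10, adjusted p = 0.13). Max, the partner of Myc, had 14.2, 17.1 and 28.1 against 30.03, 37.0 and 40.9 and rose by 0.98 ± 0.08. Within the Myc family Mycl fell by 2.83 ± 0.21 and Mycn by 1.71 ± 0.15, and Mxd3, an antagonist found in dividing cells, rose by 2.76 ± 0.14. Of 16 genes reported as repressed through Miz1, 5 were higher and 6 lower, where 49.1% and 31.1% of all genes were, and under median-ratio scaling 5 and 10. Cdkn1a and Cdkn1c were among those that were higher, while Clu, Mxd4, Cebpa and Nfkbia fell by 1.31 ± 0.27, 1.14 ± 0.08, 0.94 ± 0.08 and 0.83 ± 0.12.

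Promoters of genes that moved together are shown with motifs that these groups are known for. The window is the 250 bases before the annotated start in RefSeq on GRCm38.p6, a newer build than the mm9 build named in the submitters' processing notes. Entries were matched for 10650 of the 14566 tested genes. Each is written 5′ to 3′ in the direction of the gene, and capitals mark CACGTG (the E-box of Myc and Max), CCAAT (the box bound by NF-Y) and TTTGAA (the cell cycle homology region), each on either strand. Nop2 and Utp18 stand for ribosome biogenesis, and Ttk and Espl1 for mitosis. They are the called members of each list with the most CACGTG copies, and then the largest change, so that motif is in them by choice.
Nop2, chr6:125131633-125131882 on the plus strand: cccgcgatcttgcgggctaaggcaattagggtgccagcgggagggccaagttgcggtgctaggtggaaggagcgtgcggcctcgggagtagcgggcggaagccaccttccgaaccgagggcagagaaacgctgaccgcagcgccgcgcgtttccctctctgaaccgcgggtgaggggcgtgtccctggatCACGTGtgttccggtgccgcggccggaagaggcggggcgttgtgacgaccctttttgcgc
Utp18, chr11:93885767-93886016 on the minus strand: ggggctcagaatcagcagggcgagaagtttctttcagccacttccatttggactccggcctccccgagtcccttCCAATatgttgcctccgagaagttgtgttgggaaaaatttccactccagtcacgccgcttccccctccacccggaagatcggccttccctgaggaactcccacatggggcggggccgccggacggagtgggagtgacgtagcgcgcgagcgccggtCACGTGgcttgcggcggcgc
Ttk, chr9:83834439-83834688 on the plus strand: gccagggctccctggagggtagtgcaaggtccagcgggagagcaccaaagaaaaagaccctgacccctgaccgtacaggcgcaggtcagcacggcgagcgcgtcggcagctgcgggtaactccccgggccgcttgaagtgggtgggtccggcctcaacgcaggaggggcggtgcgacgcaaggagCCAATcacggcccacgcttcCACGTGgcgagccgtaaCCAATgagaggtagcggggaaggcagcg
Espl1, chr15:102296043-102296292 on the plus strand: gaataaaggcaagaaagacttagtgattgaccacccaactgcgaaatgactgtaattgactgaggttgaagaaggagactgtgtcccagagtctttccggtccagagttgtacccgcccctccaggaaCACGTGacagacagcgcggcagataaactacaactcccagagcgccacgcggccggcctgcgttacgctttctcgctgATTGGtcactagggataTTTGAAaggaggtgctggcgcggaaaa

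The E-box CACGTG was held by 4 of 47 ribosome biogenesis promoters (8.51%) and by 887 of all 10650 (8.33%). The CCAAT box was found in 21 of 29 mitosis promoters (72.4%) and 20 of 33 replication promoters (60.6%), against 36.2% of all. At least 2 copies, as in Ttk, were in 48.3% of mitosis promoters and in 13.1% of all. TTTGAA, as in Espl1, was in 31% of mitosis promoters, 32.5% of drug metabolism promoters and 10.9% of all. These shares describe letters in a fixed window and are no evidence of binding.

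**Figure D2:**
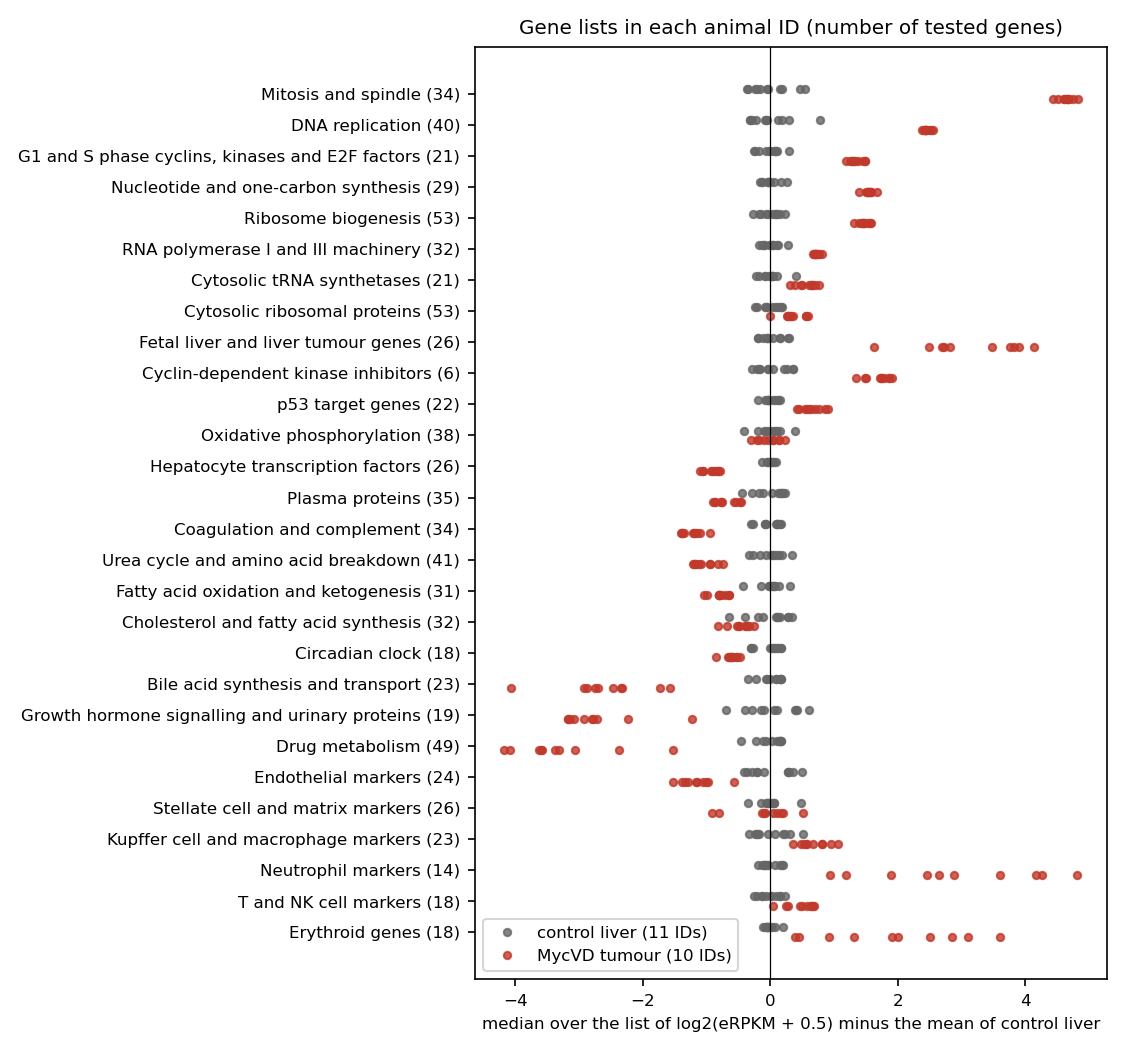
Median over each gene list of log2(eRPKM + 0.5) minus the mean of control liver, 1 point per animal ID, for 28 lists (control liver grey, MycVD tumours red, number of tested genes in parentheses). Mitosis genes sit between 4.44 and 4.83 in all tumour IDs, whereas drug metabolism runs from -4.18 to -1.52.

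Genes of the fetal liver and of liver tumours were raised, with 20 of 26 higher, 2 lower and a median of 3.15. Afp, the fetal counterpart of albumin, had 8.11, 12.5 and 19.1 in control liver and 91.0, 124 and 215 in the tumours, a rise of 3.35 ± 0.14 (adjusted p = 6.3e-20). Bex2 and Bex1, which are close copies of each other, Igf2 and Spink3 led the list with rises of 6.52 ± 0.19, 6.12 ± 0.19, 5.99 ± 0.29 and 5.95 ± 0.23. H19, the imprinted neighbour of Igf2, had 0.189, 16.8 and 43.6 against 149, 192 and 242 (4.26 ± 0.54). Its 3 lowest control IDs were at 0.189 to 1.05 and the other control IDs at 11.6 or more. Dlk1, a fetal surface protein, rose by 4.36 ± 0.24 and Gpc3, a glypican of the cell surface, by 3.61 ± 0.27.

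Lin28b and Igf2bp1 split the tumours. Lin28b encodes a fetal protein that blocks the maturation of let-7. It was at 7.17 to 14.3 in 5 of the MycVD IDs (ID133074, ID133079, ID133761, ID134660 and ID134664) and at 0 to 0.1 in the other 5, where control liver had at most 0.0754. Igf2bp1, an RNA-binding protein of fetal tissue, was at 17.0 to 50.9 in 4 of those 5 IDs, at 0.891 in ID134664, and at 0.107 to 1.16 in the other 5. Their fold changes against control, 2.21 ± 0.57 and 3.17 ± 0.66, average over these separate levels. Igf2bp3 showed no such split, at 32.8 to 47.5 in the tumours and 3.27 to 7.78 in control liver.

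Hepatocyte transcription factors were lower in 23 of 26 cases (median -0.86). Hnf4a, the central regulator of hepatocyte identity, had 120, 136 and 151 in control liver and 74.96, 96.0 and 109 in the tumours and fell by 0.51 ± 0.06, without overlap. Nr1i3, the drug sensor CAR, fell by 3.11 ± 0.22, Esr1 by 3.36 ± 0.24, and Ppara, the regulator of fatty acid oxidation, by 1.77 ± 0.10. Tbx3 had 7.37, 10.1 and 26.6 against 0, 0.19 and 2.18 and fell by 4.01 ± 0.25.

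Of 35 plasma protein genes 32 were lower and none higher, with a median of -0.67. Alb, the most abundant of them, had 85.3, 243 and 273 in control liver and 106, 129 and 217 in the tumours (log2 fold change -0.58 ± 0.17, adjusted p = 0.0021), so that the groups overlapped, and it was not called under quantile normalization (adjusted p = 0.10). Igfals, the carrier subunit of circulating IGF, had 110, 123 and 146 against 4.37, 5.91 and 16.5 and fell by 4.07 ± 0.14. Pon1 fell by 4.54 ± 0.36 and Azgp1 by 4.46 ± 0.53. Coagulation and complement genes were lower in 33 of 34 cases (median -1.16). F11 and F5 fell by 3.72 ± 0.27 and 3.54 ± 0.29, whereas Cfp, properdin, which leukocytes also make, rose by 0.68 ± 0.12.

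Drug metabolism was the list with the deepest fall: 48 of 49 genes were lower, against 31.1% of all genes, none was higher, and the median was -3.60. Cyp1a2, which oxidises caffeine, had 123, 144 and 172 in control liver and 0.202, 1.13 and 28.0 in the tumours, and fell by 6.05 ± 0.41 (adjusted p = 1.5e-14). All 23 bile acid genes, of synthesis and transport, were lower, with a median of -2.63. Cyp8b1, the hydroxylase of cholic acid synthesis, fell by 5.10 ± 0.41 from 97.6, 124 and 158 to 0.525, 2.35 and 17.6, and Cyp7b1 by 5.04 ± 0.36. Cyp7a1, the rate-limiting enzyme of bile acid synthesis, fell by 4.86 ± 0.31.

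Genes that mark zones of the liver lobule were lower in 24 of 27 cases and higher in 3. Slc1a2, a glutamate importer of the cells around the central vein, had 22.2, 28.2 and 40.8 against 0.0335, 0.131 and 1.20 and fell by 5.36 ± 0.15. Gulo fell by 4.99 ± 0.40. Cdh1, E-cadherin of the portal side, rose by 0.69 ± 0.07, and Znrf3, an inhibitor that Wnt signals induce, by 1.04 ± 0.08.

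Amino acid and fat metabolism fell by less. Of 41 genes of the urea cycle and amino acid breakdown 39 were lower and 1 higher (median -1.04). Tat and Tdo2, which open tyrosine and tryptophan breakdown, fell by 5.75 ± 0.56 and 4.59 ± 0.52, and Otc of the urea cycle by 1.22 ± 0.12. In fatty acid oxidation and ketogenesis 26 of 31 were lower and 1 higher. Cyp4a14 and Cyp4a10 fell by 5.43 ± 0.57 and 5.27 ± 0.40, and Acot1, an acyl-CoA thioesterase, rose by 1.35 ± 0.15. In cholesterol and fatty acid synthesis 19 of 32 were lower and 3 higher.

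Glucose metabolism split into 14 genes higher and 16 lower of 34, where 49.1% and 31.1% of all genes were. Hk2, the hexokinase of growing tissue, had 0.476, 0.718 and 1.89 in control liver and 16.6, 20.8 and 29.7 in the tumours and rose by 4.03 ± 0.15. Pfkp, the platelet isoform of phosphofructokinase, rose by 3.69 ± 0.18. On the hepatic side Pck1 and Fbp1 of gluconeogenesis fell by 4.60 ± 0.60 and 3.89 ± 0.49, and G6pc by 2.09 ± 0.39. Oxidative phosphorylation gave no direction that held across scalings: 2 of 38 genes were higher and 8 lower, none higher and 23 lower under median-ratio scaling, and 26 higher and 1 lower under quantile normalization.

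Of 19 tested genes of growth hormone signalling and urinary proteins 14 were lower and 1 higher. Several of them are known to differ between male and female mice, and control IDs spread widely: Hsd3b5 ran from 6.63 to 160 and Elovl3 from 3.11 to 119 in control liver. In the tumours these genes were at most 4.65 and 10.5. The part of sex in these differences was not tested. Circadian clock genes were lower in 14 of 18 cases and higher in 1. Dbp and Nr1d1 fell by 2.87 ± 0.18 and 2.69 ± 0.16, while Cry1 rose by 0.82 ± 0.15, and the labels used here name no time of day.

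Targets of p53 were higher in 14 of 22 cases and lower in 3, where 49.1% and 31.1% of all genes were. Under median-ratio scaling 12 were higher and 5 lower. Trp53 itself, which is on no list and was chosen after its values were seen, had 12.3, 14.3 and 16.2 against 38.2, 41.0 and 43.8 and rose by 1.48 ± 0.04. Besides Cdkn1a the largest rises were Psrc1 (5.11 ± 0.22), Gtse1 (4.33 ± 0.15) and Pmaip1 (3.24 ± 0.18), of which Psrc1 and Gtse1 are also spindle or cell cycle proteins and Pmaip1, Noxa, promotes cell death. Mdm2, which degrades p53, rose by 0.33 ± 0.08 but was not called under median-ratio scaling (adjusted p = 0.21) or quantile normalization (0.13). Trp53inp1 and Fas fell by 0.94 ± 0.15 and 0.85 ± 0.11. Among BCL2 family genes 7 of 16 were higher, a share below the 49.1% of all genes, and 2 were lower, or 4 under median-ratio scaling, with Bax at 1.17 ± 0.14 and the protective Bcl2l1 at -0.68 ± 0.09.

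Markers of other cell types differed too, and in bulk tissue fewer cells of a type cannot be told apart from less RNA per cell. Endothelial markers were lower in 17 of 24 cases and higher in 3, and their summed level was 400 to 702 eRPKM in control liver and 189 to 293 in the tumours. Sinusoidal markers led the falls. Clec4g had 57.4, 65.3 and 93.0 in control liver and 0.155, 0.83 and 16.9 in the tumours and fell by 5.33 ± 0.43, and Stab2 fell by 3.56 ± 0.26. Cd34 and Emcn, which mark capillaries of other kinds, rose by 2.60 ± 0.14 and 1.30 ± 0.12.

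Macrophage markers also split. Of 23, 15 were higher and 5 lower, where 49.1% and 31.1% of all genes were. Their sum was 401 to 703 in control liver and 634 to 869 in the tumours. Clec4f and Vsig4, which mark resident Kupffer cells, fell by 5.22 ± 0.54 and fell by 3.83 ± 0.44, while Cd68, found in macrophages at large, had 8.21, 12.1 and 18.0 against 38.6, 62.1 and 80.0 and rose by 2.24 ± 0.13. In the stellate cell and matrix list 8 of 26 were higher and 11 lower, against the same shares of all genes. Lrat and Reln of quiescent stellate cells fell by 4.23 ± 0.28 and 3.52 ± 0.30, and Acta2 and Timp1, higher in activated ones, rose by 2.79 ± 0.20 and 3.0 ± 0.29.

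Neutrophil and erythroid genes rose unevenly. Of 14 neutrophil markers 11 were higher and none lower, and the sum over the 15 in the table was 26.6 to 43.1 in control liver and 80.2 to 815 in the tumours. Ngp, a granule protein, was at most 0.603 in control liver and ran from 1.16 to 91.1 in the tumours, with the highest values in ID133074, ID133761 and ID133762. Prtn3, a protease of early granules, rose by 4.72 ± 0.19. Erythroid genes were higher in 14 of 18 cases, with a sum of 103 to 162 against 114 to 446, and Kel rose by 4.43 ± 0.27. T and NK cell markers were higher in 11 of 18 cases and lower in 1, where 49.1% and 31.1% of all genes were. Only 8 were higher under median-ratio scaling and 5 under quantile normalization, so no rise of this list beyond that of all genes is claimed. Their sums were 19.3 to 34.1 in control liver and 25.6 to 49.2 in the tumours. No marker of these lists was at 0 in all IDs of either group.

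**Figure D3:**
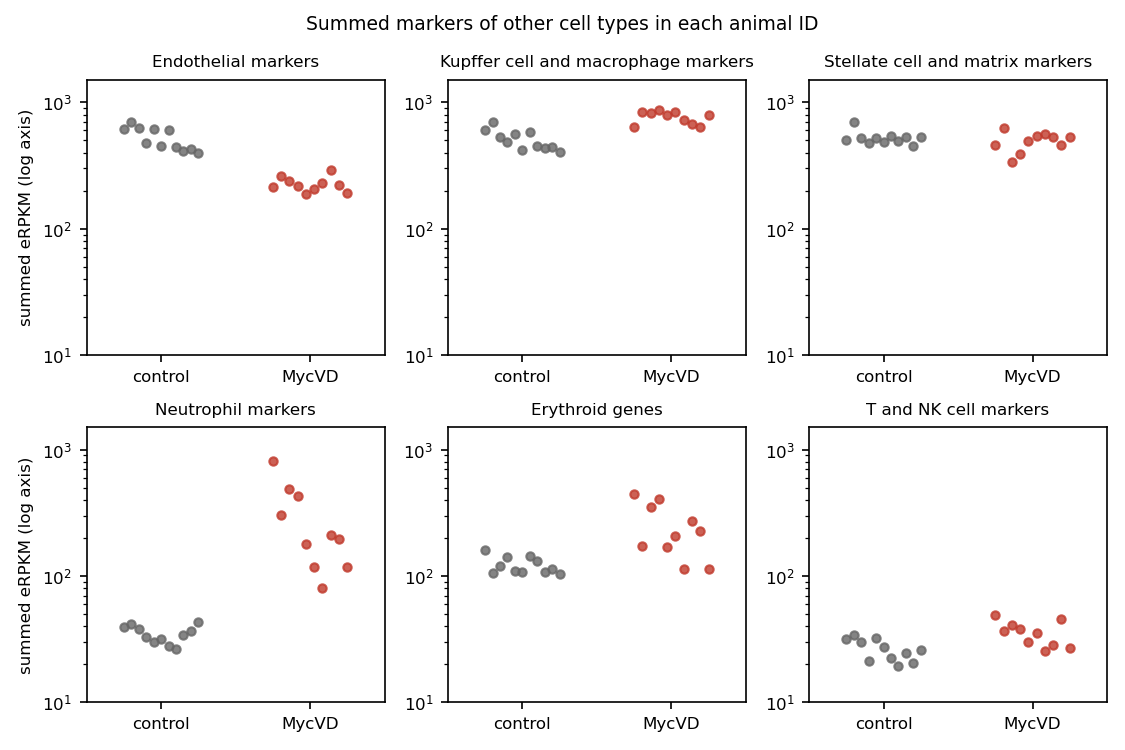
Summed eRPKM of 6 marker lists in each animal ID on a log axis, control liver in grey and MycVD tumours in red. The endothelial sums of the tumours lie below those of all control IDs, the neutrophil sums lie above them and run from 80.2 to 815, and the stellate sums overlap.

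A single tumour, ID134660, had the levels nearest to control liver in several lists. Its drug metabolism median was -1.52, where the lowest tumour ID had -4.18, and its Cyp1a2 level was 28.0, where the next ID had 6.47 as the mean of its tumours. The same library held the highest Clec4f (28.4), Clec4g (16.9) and Lrat (4.74) of all tumours. Not every list followed: its plasma protein median was -0.86, where tumour IDs ran from -0.90 to -0.47. Its median over all macrophage markers was 0.53, in the lower part of the tumour IDs' range of 0.36 to 1.06. The part of these genes in the other results was not tested. Without it the same 48 drug metabolism genes were called lower, with a median of -3.83, and Cyp1a2 fell by 6.46 ± 0.28.

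The 2 tumours of ID133765 differed in the same genes. Cyp1a2 was at 0.0701 eRPKM in tumour A and 12.9 in tumour B, Slco1a1 at 0.0327 and 9.03, Pck1 at 1.41 and 50.7, Clec4f at 0 and 9.45 and Clec4g at 0.107 and 8.51. Their drug metabolism medians were -5.36 and -1.96. Growth genes were close in both, with Mki67 at 111 and 102 and Ncl at 92.5 and 81.6, and so were Afp at 129 and 117 and Igf2 at 158 and 147. Tumours of 1 animal thus spanned much of the range seen between animals for these liver genes.

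Interferon response genes moved in both directions, with 9 of 26 higher and 9 lower, where 49.1% and 31.1% of all genes were. Under median-ratio scaling 9 were higher and 12 lower. Usp18 rose by 1.49 ± 0.19 and Stat2 fell by 1.12 ± 0.08. Antigen presentation genes were lower in 10 of 19 cases and higher in 3. Tap2, a peptide transporter subunit, had 22.7, 26.0 and 49.8 in control liver and 2.27, 6.31 and 29.6 in the tumours and fell by 1.90 ± 0.25. The highest tumour ID of this list's medians was ID133761, at 0.51, where the lowest had -0.75. Acute phase genes were lower in 15 of 21 cases and higher in 3, with Hamp2 falling by 4.51 ± 0.45 and Mt2 rising by 0.77 ± 0.24.

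MycVD tumours were then set against Myc tumours, which carry the wild-type transgene and were compared with the same control livers. Of 14566 genes 2290 were called between the tumour kinds (15.7%), 955 higher in MycVD tumours (6.56%) and 1335 lower (9.17%). At least 2-fold were 401 (2.75%), and the ID values did not overlap for 301 (2.07%). Myc tumours against control had 11640 calls (79.9%). The count between the tumour kinds was not stable: it was 1097 with depth as a term, 3968 without the 8 low-Gapdh libraries, 5 of which are Myc tumours, and 4791 with array weights. Of the 3046 genes at least 2-fold higher than control in MycVD tumours, 525 were also called against Myc tumours, 153 farther from control and 372 nearer to it. Of the 1857 lower genes 386 were, 123 farther and 263 nearer.

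In the mitosis list no gene was called between the tumour kinds, and the differences lay between -0.33 and 0.15. None of the 40 replication genes was called either (-0.37 to 0.14). Some alternatives called up to 3 mitosis and up to 2 replication genes, all lower in MycVD tumours. Of 21 genes of the G1 and S phases 4 were lower in MycVD than in Myc tumours and none higher, namely E2f7 (-1.17 ± 0.20), Cdk6 (-0.58), E2f6 (-0.55) and Ccnd2 (-0.51). With depth as a term 1 of them, E2f7, was called. Mki67 was at 83.2, 92.8 and 110 in Myc tumours (difference 0.13 ± 0.23), Ncl at 77.3, 81.8 and 86.1 (0.12 ± 0.06) and Cdkn1a at 16.2, 21.9 and 44.3 (-0.17 ± 0.33). Mki67, Ncl and Cdkn1a were not called, although Ncl was with array weights (adjusted p = 0.027). A difference is not excluded for any of them, and the wider intervals of Mki67 and Cdkn1a allow a larger one than that of Ncl. Cdkn2b was higher in MycVD tumours by 0.66 ± 0.21 (adjusted p = 0.035), at 0.324, 0.515 and 0.917 in Myc tumours, where control liver had a median of 0.43. This call was lost without ID133761, ID133763 or ID133765 (adjusted p = 0.055, 0.053 and 0.065) and with a pseudocount of 0.1 (0.064).

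Liver genes called between the tumour kinds were mostly higher in MycVD tumours. Depth ran from 7.27 to 12.6 M reads in Myc tumours and from 6.18 to 10.6 M in MycVD tumours. A limit on reads per kb would lower abundant genes in deeper libraries, and its part in these differences was not tested. Of 34 coagulation and complement genes 22 were higher and none lower, and with depth as a term 14 were higher and 1 lower. C9, the last component of the complement pore, had 64.7, 118 and 165 in control liver, 4.94, 14 and 44.9 in MycVD tumours and 0.893, 1.92 and 4.79 in Myc tumours, a difference of 2.40 ± 0.33 (adjusted p = 9.1e-06). F5 and F11 differed by 1.29 ± 0.33 and 0.99 ± 0.30, the latter not called with depth as a term (adjusted p = 0.13). Of 35 plasma protein genes 17 were higher and none lower, but 4 with depth as a term. Ttr, transthyretin, was at 42.8, 49.9 and 68.4 in Myc tumours and at 71.0, 88.4 and 104 in MycVD tumours (0.79 ± 0.10). Clu, a chaperone on the list of genes repressed through Miz1, was at 2.91, 23.2 and 32.3 in Myc tumours, 26.1, 54.1 and 94.1 in MycVD tumours and 83.0, 141 and 173 in control liver, and differed by 1.86 ± 0.31 (adjusted p = 0.0001). Cebpa differed by 0.38 ± 0.09 in the same direction, and was not called with depth as a term (adjusted p = 0.099). Clu had the highest difference of the 16 genes on that list. Their median difference was -0.094, and the lowest was -0.31 (Vamp4), so the list as a whole was not higher in MycVD tumours.

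By the rule used for control liver, no overlap and at least 5 eRPKM, the 6 largest rises over Myc tumours were Krt20, Fam83f, Serpina12, Ces1e, C9 and Erich4. Krt20, a keratin of intestinal epithelium, was at most 0.0579 in control liver, at 5.40, 15.1 and 37.1 in MycVD tumours and at 0.739, 1.18 and 3.44 in Myc tumours (3.17 ± 0.28, adjusted p = 6.4e-09). The rule required every MycVD ID to exceed every Myc ID, and both tumour kinds lay above control liver. Erich4 had the same order, with 9.45, 24.3 and 42.1 against 3.21, 4.0 and 6.07 (2.30 ± 0.34). Serpina12 and Ces1e kept more of their control level in MycVD than in Myc tumours (2.55 ± 0.41 and 2.42 ± 0.29).

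Among the largest falls by that rule were Clps, Ckm, Lin28b, Stk39 and Slc1a4. Clps, colipase of the pancreas, and Ckm, muscle creatine kinase, were at 10.4 to 48.9 and 6.81 to 21.1 in Myc tumours and at most 5.99 and 3.02 in MycVD tumours. The difference of Lin28b, -2.92 ± 0.65, was not called with depth as a term (adjusted p = 0.051). Stk39, a kinase that regulates ion transport, was at 0.448, 1.15 and 3.92 in MycVD tumours and 7.54, 13.3 and 19.6 in Myc tumours (-2.78 ± 0.27).

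**Figure D4:**
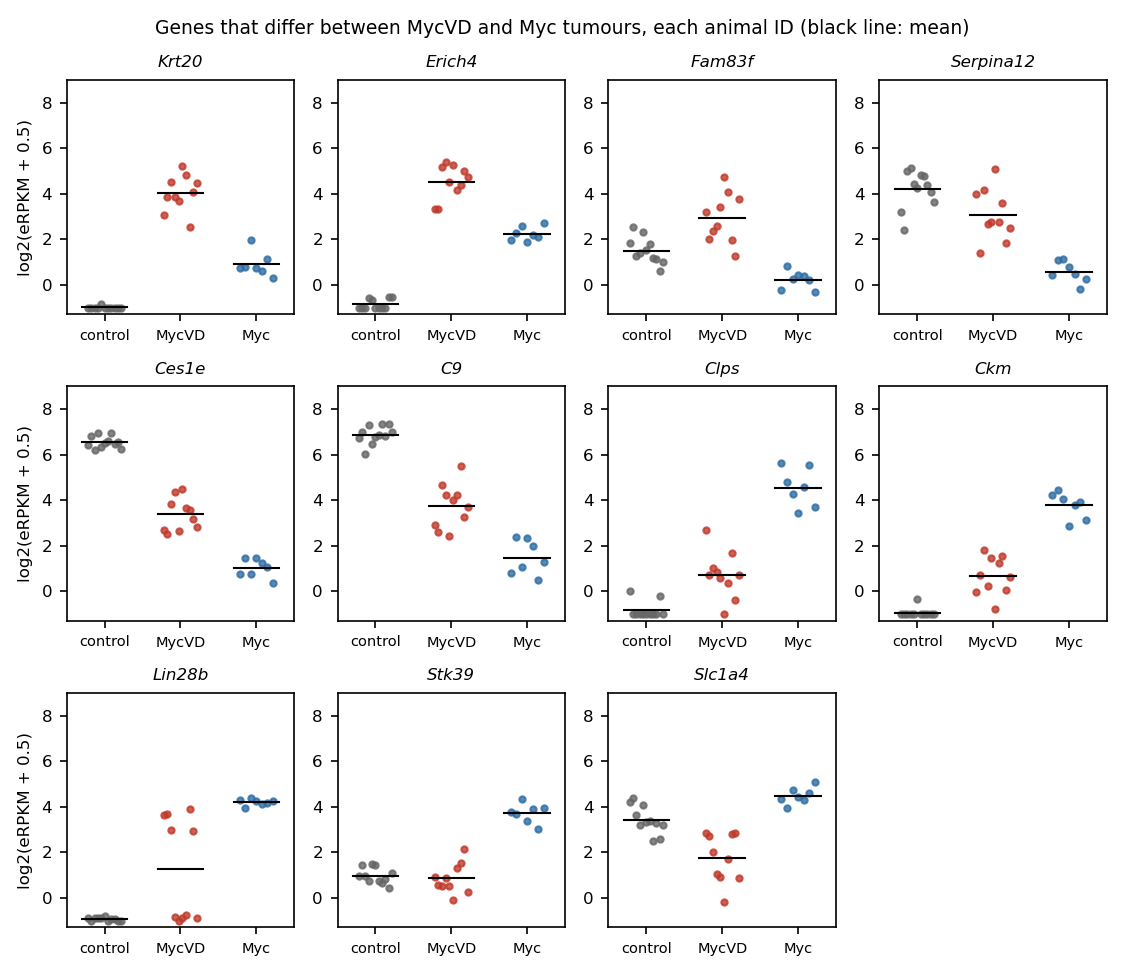
Levels of 11 genes in control liver (grey), MycVD tumours (red) and Myc tumours (blue) on a log2(eRPKM + 0.5) axis, 1 point per animal ID with the group mean as a black line. Krt20 and Erich4 are highest in MycVD tumours, Clps, Ckm and Stk39 are high in Myc tumours, and Lin28b lies in separate high and low sets within the MycVD tumours.

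For 18 genes both tumour kinds were called against control in opposite directions and were called against each other. Fam83f was at 1.01, 2.15 and 5.28 in control liver, 1.89, 7.17 and 26.1 in MycVD tumours and 0.298, 0.711 and 1.28 in Myc tumours, so that it rose by 1.43 ± 0.35 in one and fell by 1.30 ± 0.39 in the other. Slc1a4, an exchanger of neutral amino acids, had 5.08, 9.68 and 20.4 in control liver, 0.391, 3.12 and 6.76 in MycVD tumours and 14.8, 20.8 and 33.9 in Myc tumours. Nrp2, picked from these 18 after its values were seen, is a coreceptor for semaphorins and VEGF, which fell by 0.81 ± 0.16 in MycVD tumours and rose by 0.60 ± 0.18 in Myc tumours. Paox, which breaks down acetylated polyamines, showed the order of Slc1a4 with a difference of -0.75 ± 0.12 between the tumours. Gzmb, a granule protease of cytotoxic lymphocytes, was at 5.45, 7.58 and 11.4 in Myc tumours and 1.10, 1.89 and 6.84 in MycVD tumours (-1.62 ± 0.34, adjusted p = 0.0015), and the summed T and NK cell markers were 45.8 to 66.2 and 25.6 to 49.2.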

How the data were processed

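Total RNA of good quality (integrity number at least 7.5, per the labels' protocols) was depleted of ribosomal RNA and made into libraries with a kit that does not mark strand, so reads of a gene and of its antisense partner cannot be told apart. The submitters' processing notes list TopHat, TopHat2 (2.0.8) and build mm9, with no roles given. The sources used here do not give the read counter or annotation. The deposited table holds eRPKM values, exonic RPKM made by the authors, for 21671 genes in 46 libraries, and 0 columns were without a sample. Low values of 19465 genes were whole multiples of 1 read within a tolerance of 0.001 reads, which gave the depths.

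Values of the tumours of 1 ID were averaged as log2(eRPKM + 0.5) for tests and as eRPKM where levels are printed. The tests used limma 3.58.1 in R 4.3.3 (lmFit and eBayes with trend, two-sided) in 1 fit of 31 IDs and 4 groups, over 14566 genes that reached 1 eRPKM in 3 or more IDs, leaving out 7105, with Benjamini-Hochberg adjustment at 0.05. The script was tested on simulated data in which few genes changed, as many up as down. That test says nothing about the choice of scaling. Libraries within control liver and within MycVD tumours differed beyond sampling noise (smallest chi-square over degrees of freedom 3.33 and 4.81). The labels name no separate cultures or cages, and p-values measure the spread between these IDs.

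The members and the 41 gene lists were chosen with earlier results of these data known, so lists are described by counts and medians with no set test, and 1089 of 1099 list entries matched a gene of the table. Named genes are 10 set by the question, the 10 largest rises and falls with ID values that do not overlap and at least 5 eRPKM in the higher group (provisional and small RNA names left out), the 4 largest members of each list in its main direction and 2 in the other, the 6 largest rises and falls against Myc tumours, and further list members. Alternatives were other pseudocounts, filters, scalings, replicate units, weights, a depth term, a correction for reads with the same start, leaving out each ID and, added after seeing the data, leaving out or marking libraries with Gapdh under 30 eRPKM. A few genes that this rule names are not reported here.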

Additional observations from a re-analysis of the deposited data

Results flagged for a closer look

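Of 158 named genes looked at in the 10 MycVD IDs, 19 had an ID whose gap to its nearest neighbour was above Dixon's critical share of the group's range of log2 values, where chance gives about 1 in 20 groups. ID134660 was the highest for 12 of these genes: Ces1f (10.5 eRPKM), Cyp2d13 (11.7), Slco1a1 (33.5), Sdr9c7 (5.72), Hsd3b5 (4.65), Cyp1a2 (28.0), Cyp4f15 (7.86), Tbx3 (2.18), Cyp7b1 (13.2), Slc1a2 (1.20), Gulo (34.5) and Elovl3 (10.5). All 12 are genes of mature liver that fell in the group.

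ID133079 was the lowest for Nr1i3 (1.22 eRPKM), G6pc (1.66) and Trp53inp1 (9.22) and the highest for Paox (33.3). It is a library with low Gapdh, and the part of that in these values was not tested. Peg10 was low in ID133762 (3.75) and Dusp9 in ID133074 (69.1). Igf2bp3 was high in ID133764 (47.5). Control liver has 11 IDs and was not looked at in this way.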

How the results depend on the processing

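The counts against control kept within 1.5 times their value under 14 alternatives, with 5866 to 8000 genes higher and 3855 to 5710 lower, and leaving out each ID gave 7067 to 7253 and 4477 to 4599. Myc tumours against control had 9895 to 12985 calls. Calls between the tumour kinds numbered 4791 with array weights, 1097 with depth as a term and 3968 without the low-Gapdh libraries, against 2290, and 1825 to 2598 when each ID was left out. The cause was not tested.

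Of 155 named genes 148 kept their direction and call against control under every alternative, and 18 of 28 did so against Myc tumours. Under quantile normalization the signs reversed for Myc (-0.12) and Zbtb17 (-0.15) against control and for Mki67 (-0.04) and Ncl (-0.023) against Myc tumours. Zbtb17 was at -0.045 under median-ratio scaling, and Cdkn1a against Myc tumours at 0.33 with depth as a term. These reversed values were not called, but Ncl was called against Myc tumours with array weights (0.15). No paired analysis was possible because the labels number no replicates across groups. Depth limits genes under about 1 eRPKM, and the limit on reads per kb compresses abundant ones.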
